A study of Sus scrofa with 42 samples.

Results

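Heat shock proteins and chaperonins fold newly made and damaged proteins, and the genes described here are the 67 members of these families, of 15351 genes in an FPKM table of single blastomeres from pig embryos. They were chosen by gene symbol alone, with no measured value used. Symbols starting with HSPA, HSP90, DNAJA, DNAJB or DNAJC, the numbered HSPB genes, HSPD1, HSPE1, HSPH1 and CCT2 to CCT8 were taken. The set holds 26 DNAJC genes, 11 genes of the HSP70 and HSP110 proteins, 10 DNAJB genes, 7 CCT subunits, 6 small heat shock proteins, 4 DNAJA genes, the 2 genes of the mitochondrial chaperonin and 1 HSP90 gene. HSP90B1, HSPA9, DNAJB11 and DNAJC4 belong to the same families, but the table lists them under an identifier without a symbol, so they are not members and are described only as relatives. No gene of the table carries the symbol HSP90AA1, HSPA1A, HSPA1B or HSPA6, so none of these is described.

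Oocytes from the ovaries of gilts were matured in vitro and then either fertilized in vitro (IVF) or activated parthenogenetically (PA). IVF embryos came from incubation with sperm, and PA embryos from electric pulses followed by 6-dimethylaminopurine and cytochalasin B, so that PA embryos carry a maternal genome and no paternal one. No embryo was given a heat shock or another stress by design. Both kinds were collected at the 1-cell stage (19 h), the 2-cell stage (27 h), the 4-cell stage (48 h) and the 8-cell stage (72 h), with 3 embryos in each group and 1 embryo in each 8-cell group. Each method gave 3 cells at the 1-cell, 6 at the 2-cell, 9 at the 4-cell and 3 at the 8-cell stage, 42 cells of 20 embryos in all. An embryo's value is the mean over its sequenced blastomeres, because cells of 1 embryo are not replicates of a condition.

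HSP70 proteins bind exposed hydrophobic stretches of a client and release them in a cycle driven by ATP. The J-domain proteins (DNAJA, DNAJB and DNAJC) bring clients to HSP70 and start its ATP hydrolysis, and HSP110 proteins reload it. HSP90 takes over clients such as kinases, small heat shock proteins hold unfolded proteins in solution, and the barrel-shaped chaperonins enclose a client while it folds. Under stress many of these genes are switched on by heat shock factors that bind heat shock elements, which are inverted repeats of the letters GAA. In mammalian embryos HSP70 genes are also known among the early products of the newly active embryonic genome.

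Between 5641471 and 19518553 reads on genes per cell stood behind the values, as recovered from the steps of the FPKM. Amplified reads without molecular identifiers are not independent molecules, so precision was taken from the spread between embryos. One blastomere each of PA 4-cell embryos 1 and 2 nearly repeated a PA 2-cell blastomere (Pearson's r 0.9985 and 0.9988 over genes, while the highest of the 859 other pairs was 0.908), and the calls that use the PA 4-cell group, with the members' values that moved most, are given with and without these 2 libraries. Summed FPKM of oocyte markers lay between 743 and 1914 in every 1-, 2- and 4-cell embryo and were 76.7 in the 8-cell embryo of IVF and 143 in that of PA. Markers of the activated embryonic genome summed to at most 28.9 up to the 2-cell stage, to 10.5 to 561 in 4-cell embryos and to 204 and 266 in the 8-cell embryos. Those of cumulus cells summed to at most 14.9, those of blood, immune and epithelial cells to at most 17.1 and those of sperm to 0.0572 to 62.1 FPKM, in PA embryos as in IVF. Mitochondrially encoded genes took 6.07% to 63.0% of a cell's FPKM, with group medians from 13.2% at the PA 1-cell to 52.3% at the IVF 8-cell stage. These shares move with stage, and an alternative fit described below rescaled nuclear genes to the same total. Beyond that fit their part in the results was not tested.

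The family was abundant in the zygote and its summed level was lower at the 4-cell stage in both methods. The members summed to 1035 ± 70.0 FPKM (SD, n = 3) in IVF 1-cell, 894 ± 79.3 in IVF 2-cell and 679 ± 114 in IVF 4-cell embryos, and to 608 in the IVF 8-cell embryo. In PA embryos the sums were 966 ± 77.8, 1068 ± 315 and 743 ± 79.3, and the PA 8-cell embryo reached 1355. Its 3 cells summed to 873, 1115 and 2077, and those of the IVF 8-cell embryo to 374, 644 and 806. In 1 of the PA 8-cell cells 3481 genes were above 0, the fewest of the 42 cells. IVF 4-cell embryos (592 to 808) lay below IVF 2-cell embryos (839 to 985), while PA 4-cell embryos (685 to 833) overlapped PA 2-cell embryos (793 to 1412). Without the near repeats the PA 4-cell sum was 678 ± 42.5, with all 3 embryos (630 to 709) below the PA 2-cell embryos. As a share of the FPKM of nuclear genes, the family went from 0.923% at the IVF 1-cell to 0.437% at the IVF 8-cell stage, and from 0.969% to 1.05% in PA. Of the 67 members, 66 were above 0 in some cell, and HSPB3, a small heat shock protein of muscle, was at 0 in all 42. Tests covered the 52 members that reached 1 FPKM in 3 or more cells. The 15 others were DNAJB5, DNAJB7, DNAJB12, DNAJB13, DNAJC5, DNAJC22, DNAJC25, DNAJC28, HSPA1L, HSPA12B, HSPA13, HSPB2, HSPB3, HSPB7 and HSPB8.

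**Figure D1:**
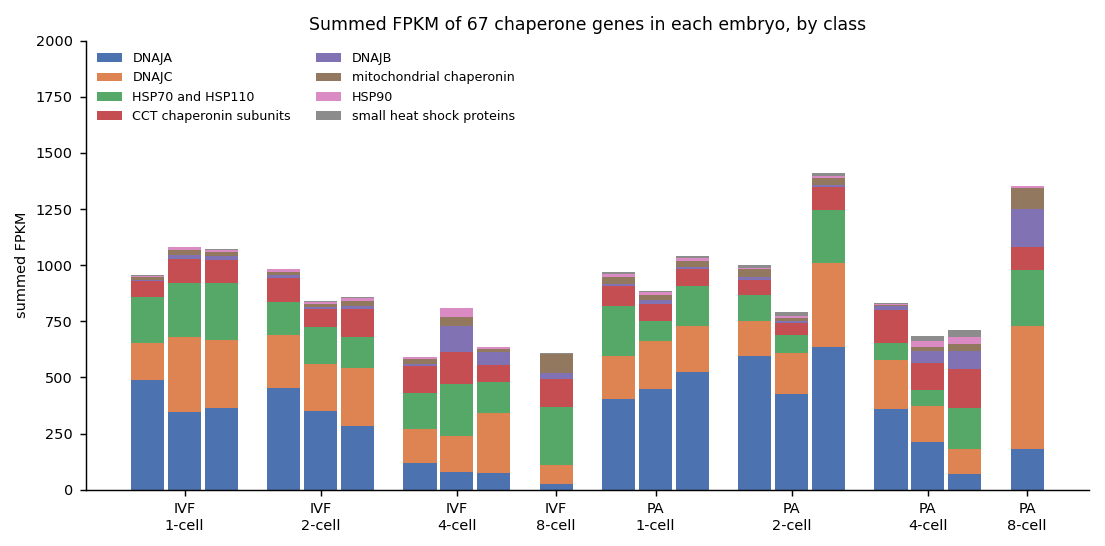
Summed FPKM of the 8 classes of heat shock and chaperonin genes in each of the 20 embryos. DNAJA genes take much of the sum up to the 2-cell stage (400 ± 78.0 in IVF 1-cell and 459 ± 61.0 in PA 1-cell embryos), and DNAJC genes take 545 of the 1355 FPKM of the PA 8-cell embryo.

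The median cell had 39 of the 52 tested members at an FPKM of at least 1 at the 1-cell stage in both methods, and 16 at the 8-cell stage in both. For the members this is 75.0% of the genes at the 1-cell stage, where the median cell had 69.0% of all tested genes in IVF and 57.6% in PA. At the 8-cell stage 30.8% of the members compare with 23.1% of all genes in IVF and 20.9% in PA. Fewer members, and fewer genes of the whole table, were thus detected per cell at the 8-cell than at the 1-cell stage.

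Changes were called with limma at a Benjamini-Hochberg adjusted p below 0.05 and an absolute log2 fold change of at least 1, over 8116 tested genes and on the scale of log2(FPKM + 1), which understates changes of low genes. Each group of 1 embryo (8-cell) was assumed to vary like the other groups, and the comparisons of 1 stage with the next share embryos. A change over both methods is the mean of the IVF and the PA change, so 1 method alone can carry it. Between the 1- and 2-cell stages no member was called, in IVF (0% of all genes called, 2 members at an unadjusted p below 0.05), in PA (0.0986%, 2 members) or in both methods together (0%, 4 members). From the 2- to the 4-cell stage over both methods 1 member rose (1.79% of all genes) and 2 fell (2.35%), and 11 had an unadjusted p below 0.05. No member was called at that step within IVF alone (1.11% of all genes, 7 members at an unadjusted p below 0.05) or within PA alone (0.394%, 7 members).

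From the 4- to the 8-cell stage over both methods 4 of the 52 members rose, against 7.27% of all genes, and 2 fell, against 5.34%. Within IVF 0 rose (3.72%) and 3 fell (3.25%), with 11 members at an unadjusted p below 0.05, and within PA 6 rose (6.81%) and 2 fell (3.18%). The members' median log2 difference over both methods was 0.13 where that of all genes was -0.29, and at the step from 2 to 4 cells it was -0.34 where that of all genes was -0.24. Between IVF and PA no member was called at the 1-cell (0.0493% of all genes, 2 members at an unadjusted p below 0.05) or 2-cell stage (0%, 1 member), while at the 4-cell stage 1 was higher in IVF (0.419%) and 1 in PA (0.136%). The step from 4 to 8 cells differed between the methods, as an interaction, for 3 members, all lower in IVF relative to PA (1.97% of all genes in that direction). Interactions with the 2 earlier steps called 0 members, with 1 and 2 at an unadjusted p below 0.05. Without the near repeats 5 members fell within PA from 2 to 4 cells (6.26% of all genes) and 0 rose (1.15%), and over both methods 2 rose (2.54%) and 6 fell (9.07%). From 4 to 8 cells 7 then rose within PA (8.10%) and 1 fell (1.63%), over both methods 4 rose (7.44%) and 2 fell (3.18%), and within IVF 0 rose (3.47%) and 3 fell (2.50%). At 4 cells 2 were then higher in IVF (3.75%) and 0 in PA (0.320%), and the interaction called 4 members (2.29%). Over both methods these shares of members lie near those of all genes, and what follows concerns single genes.

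**Figure D2:**
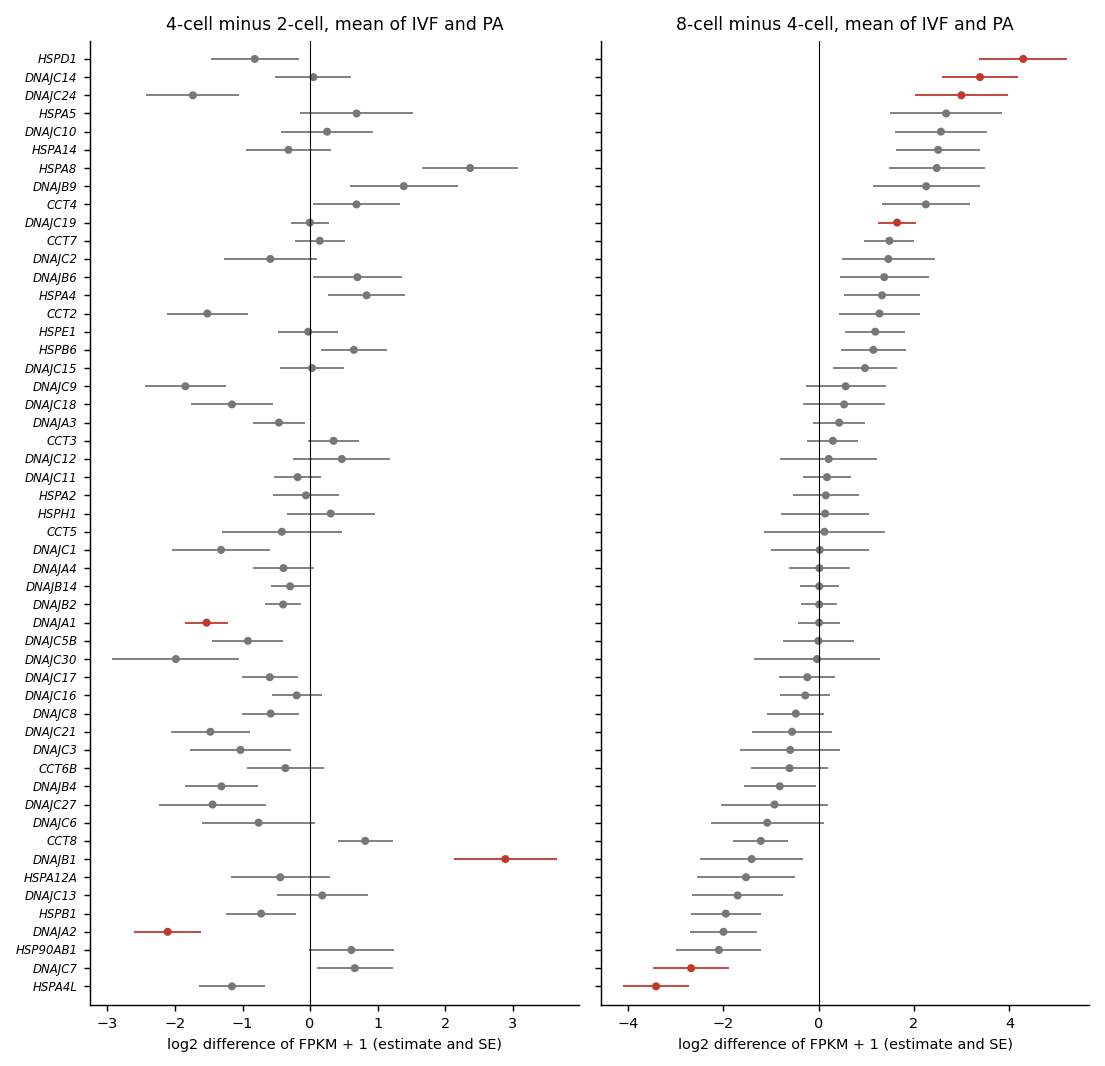
Log2 fold change of the 52 tested members over both methods, from the 2- to the 4-cell and from the 4- to the 8-cell stage, on the scale of log2(FPKM + 1), with standard errors as bars and called members in red. DNAJB1 rose by 2.89 and DNAJA1 and DNAJA2 fell at the earlier step, and HSPD1 rose most among the called members at the later one, by 4.29.

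DNAJA1 and DNAJA2, the major J-domain partners of cytosolic HSP70, were the most abundant members and fell as embryos reached 4 cells. DNAJA2 (ENSSSCG00000002846, Sscrofa11.1, chr6:37591569-37692578, plus strand) averaged 211 FPKM over embryos, above 99.3% of tested genes by its mean. It stood at 338, 149 and 186 FPKM in the IVF 1-cell embryos, at 288, 222 and 176 at the 2-cell stage and at 72.9, 32.5 and 46.9 at the 4-cell stage. The IVF 8-cell embryo held 2.54. In PA embryos DNAJA2 was at 234, 295 and 396 FPKM at the 1-cell, 461, 298 and 471 at the 2-cell and 272, 170 and 19.9 at the 4-cell stage, and at 85.9 in the 8-cell embryo. Every 4-cell embryo thus lay below every 2-cell embryo of its own method. PA 4-cell embryos 1 and 2 held 25.7 and 135 without the near repeats.

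Over both methods DNAJA2 fell from the 2- to the 4-cell stage by 2.11 on the log2 scale (SE 0.49, adjusted p = 0.0204), and without the near repeats the difference was -2.72 (adjusted p = 0.000895). The call was lost without IVF 2-cell embryo 1 (log2 -2.02), IVF 4-cell embryo 2 (-1.97) or PA 2-cell embryo 3 (-2.05), with no filter on low genes, and with scaling by the median ratio of shared genes, which gave -0.28 and moved the median of all genes from -0.24 to 0.31. Within IVF it fell again to the 8-cell stage, by 3.80 (SE 0.99, adjusted p = 0.0210). That call was lost without IVF 4-cell embryo 1 (-3.50), at a pseudocount of 5 and with median ratio scaling (-1.69). In PA the same step gave -0.19 (SE 0.99, adjusted p = 1), or 1.04 without the near repeats (adjusted p = 0.738), and the interaction of the step with method was -3.60 (adjusted p = 0.198), or -4.83 without the near repeats (adjusted p = 0.0483).

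DNAJA1 (chr10:33430985-33445584, minus strand) lay at 148, 196 and 178 FPKM in IVF 1-cell, 157, 127 and 109 in IVF 2-cell and 43.7, 47.4 and 26.5 in IVF 4-cell embryos, and at 22.1 in the IVF 8-cell embryo. The PA values were 167, 153 and 126, then 133, 128 and 165, then 84.6, 41.4 and 49.3, and 96.4 in the 8-cell embryo. As for DNAJA2, no 4-cell embryo reached a 2-cell embryo. Leaving out the near repeats gave PA 4-cell embryos 1 and 2 values of 58.7 and 2.11. Over both methods DNAJA1 fell by 1.53 between these stages (SE 0.31, adjusted p = 0.0102), or by 2.25 without the near repeats (adjusted p = 0.0142), but with median ratio scaling the difference was 0.47 (adjusted p = 0.658) and its direction turned. The levels of DNAJA1 and DNAJA2 went together over the 20 embryos (Pearson's r 0.81 on the log2 scale, and 0.62 over the 42 cells), a description over embryos that share stages and scaling. Among 8064 other tested genes PPHLN1 (r 0.951), NAA30 (0.947) and ENSSSCG00000003303 (0.931) followed DNAJA2 most closely over the embryos.

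Among the HSP70 and HSP110 genes, the HSP110 relative HSPA4L was high up to the 4-cell stage and almost absent from the IVF 8-cell embryo, while the constitutive HSP70 gene HSPA8 was highest in the 8-cell embryos. HSPA4L (chr8:96961578-97089996, minus strand) had 124, 96.7 and 109 FPKM in IVF 1-cell, 90.1, 124 and 82.7 in IVF 2-cell and 104, 15.05 and 46.2 in IVF 4-cell embryos, and 0.224 at the IVF 8-cell stage. The PA embryos held 145, 42.6 and 120, then 79.4, 58.9 and 145, then 16.6, 53.0 and 71.4, and 11.8 at 8 cells. The IVF 8-cell embryo lay below every earlier IVF embryo. The PA one did so only with the near repeats in, since without them PA 4-cell embryo 1 held 2.59 (embryo 2 held 43.6). HSPA4L fell from 4 to 8 cells over both methods by 3.41 (SE 0.69, adjusted p = 0.00226, and -2.98 with adjusted p = 0.0421 without the near repeats) and within IVF by 5.13 (SE 0.98, adjusted p = 0.00229). Both calls were lost with median ratio scaling, which gave -2.78 and -4.34.

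HSPA8, the constitutive cytosolic HSP70, stood at 5.46, 16.8 and 16.1 FPKM in IVF 1-cell and at 0.101, 7.59 and 6.03 in IVF 2-cell embryos. It was at 8.38, 81.8 and 23.4 at the IVF 4-cell stage and at 86.2 in the IVF 8-cell embryo. In PA embryos it was at 14.7, 7.54 and 0.974, then 2.35, 4.04 and 1.45, then 24.4, 3.22 and 24.7, and at 132 at 8 cells. All IVF 4-cell embryos lay above the IVF 2-cell embryos, while PA 4-cell embryo 2 lay within the PA 2-cell range. Over both methods the 2- to 4-cell difference was 2.37 (SE 0.71, adjusted p = 0.0653), which passed without the near repeats (2.53, adjusted p = 0.0323), and the 4- to 8-cell difference was 2.48 (SE 1.01, adjusted p = 0.125), or 2.31 without them (adjusted p = 0.198).

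HSPA8 is 1 of 5 members with the 3-unit heat shock element GAANNTTCNNGAA, on either strand, within 250 bases before the RefSeq start (models on Sscrofa11.1). These members were DNAJB14, DNAJB6, HSP90AB1, HSPA8 and HSPD1, 7.58% of the 66 members that matched RefSeq, and 65 of 19531 windows of all genes held it (0.333%). With the starts of the deposited table it was in 4 of 67 member windows (DNAJB14, DNAJB5, DNAJB6 and HSP90AB1) and in 54 of 14915 windows of all genes, and the sites of HSPA8 and HSPD1 were not among them. DNAJB1, described below as stress-inducible, HSPB1 and HSPH1 held no 3-unit element with either set of starts. The sites of HSPA8, HSPD1 and HSP90AB1 are shown as examples, picked among the members with a match. Each has the element in capitals and 8 bases on each side, 5′ to 3′ on the gene's strand. Those of HSPA8 lie at chr9:49986962-49986990 and chr9:49986795-49986823 (minus strand), that of HSPD1 at chr15:101373708-101373736 (minus strand) and that of HSP90AB1 at chr7:39237095-39237123 (plus strand).
HSPA8 distal site: gcgagaatGAAAGTTCCAGAAcgctgcgg
HSPA8 proximal site: cgggccccTTCTGGAAGGTTCtgaggccg
HSPD1 site: cctccccgGAAAGTTCTGGAAcggcgcgc
HSP90AB1 site: ccgcccccGAAGCTTCCAGAActaagcct
Either of the 2-unit forms GAANNTTC and TTCNNGAA, both of which each longer element contains, was in the windows of 17 members (25.8%) and in 10.5% of all windows. The endoplasmic reticulum stress element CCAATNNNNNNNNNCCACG was in no member's window and in 14 of all windows (0.0717%). A match is a run of letters and not a measured binding site. Heat shock factors themselves were low, with HSF1 at most 0.0494 FPKM in any embryo and HSF2 at most 5.32.

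Of the other HSP70 genes, HSPA5, the chaperone of the endoplasmic reticulum, was at 12.3, 7.21 and 12.9 FPKM in IVF 1-cell embryos and between 0 and 2.73 in IVF 2-cell embryos and in IVF 4-cell embryos 1 and 2. IVF 4-cell embryo 3 had 20.01 and PA 4-cell embryo 3 had 21.5, and the 8-cell embryos had 7.95 (IVF) and 44.0 (PA). HSPA5 was at 131 FPKM in 1 PA 8-cell blastomere, and the sisters there spanned 6.85 on the log2 scale. Its 4- to 8-cell difference over both methods was 2.67 (SE 1.18, adjusted p = 0.165), or 2.64 without the near repeats (adjusted p = 0.187). HSPA14, which works at the ribosome, had 17.4, 29.4 and 34.2 FPKM in IVF 1-cell embryos, 13.2, 20.5 and 4.98 in IVF 4-cell embryos and 90.7 at the IVF 8-cell stage, where it was the most abundant member. On the log2 scale HSPA14 spanned 6.85 between sisters of the IVF and 7.15 between those of the PA 8-cell embryo. In PA 4-cell embryos it was at 2.04, 8.65 and 45.8, and at 46.9 at 8 cells (both methods 2.51, SE 0.88, adjusted p = 0.0707, and 2.52 with adjusted p = 0.0836 without the near repeats).

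HSPH1, the main HSP110 and an exchange factor of HSP70, lay at 33.3, 101.2 and 38.0 FPKM in IVF 4-cell embryos and at 9.46, 1.04 and 18.2 in PA 4-cell embryos, without overlap. The IVF minus PA difference was 2.80 (SE 0.92, adjusted p = 0.160). Without the near repeats PA 4-cell embryos 1 and 2 had 0.0697 and 0.0948 FPKM and the difference was 4.19 (adjusted p = 0.0312). HSPA4, its relative, was at 10.1 FPKM or less in every embryo.

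**Figure D3:**
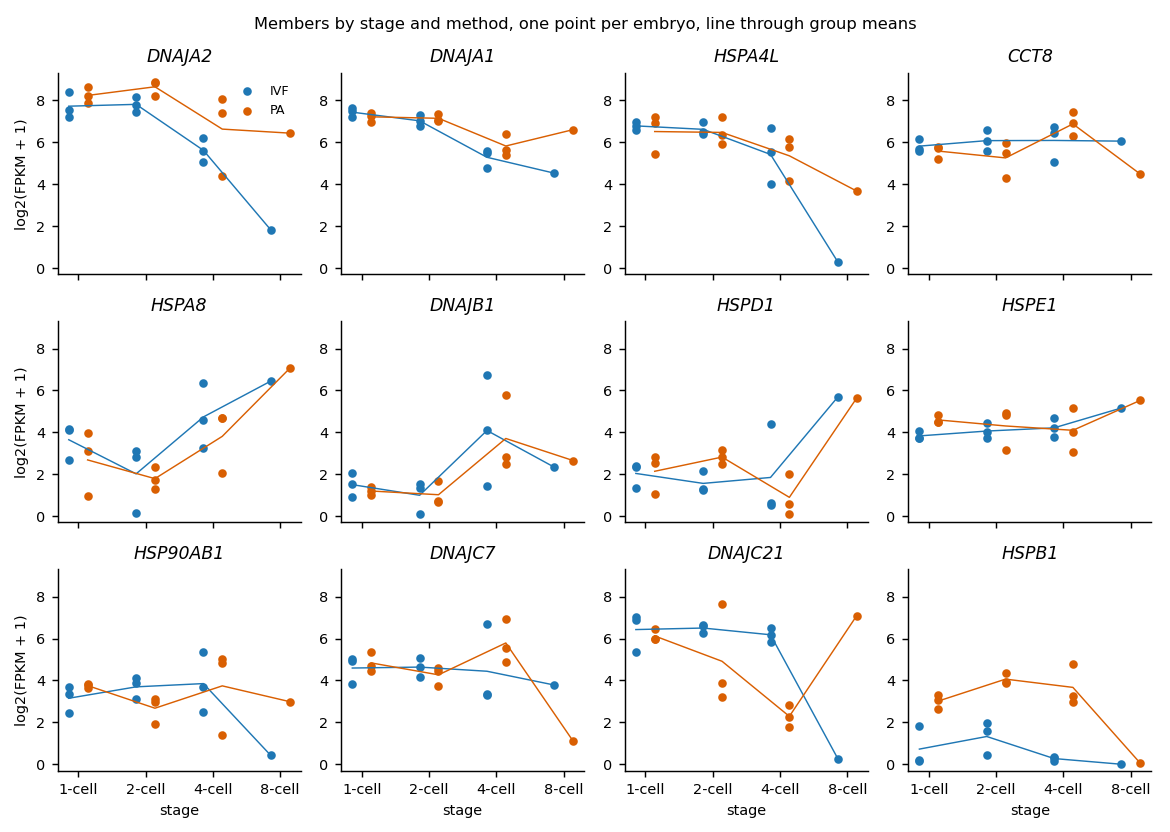
Levels of 12 members by stage, as log2(FPKM + 1), with 1 point per embryo of IVF (blue) or PA (orange) and lines through the group means. DNAJA2 and DNAJA1 are lower in every 4-cell than in every 2-cell embryo of the same method, HSPD1 reaches 50.6 and 48.7 FPKM in the 8-cell embryos, and HSPB1 lies lower in IVF than in PA embryos at the 1-, 2- and 4-cell stages with all libraries in, the near repeats included.

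HSP90AB1, the constitutive cytosolic HSP90 (chr7:39237294-39254002, plus strand), is the 1 member of its class. It ranged from 4.37 to 40.7 FPKM over the IVF embryos of 1 to 4 cells and was at 0.341 in the IVF 8-cell embryo, below all of them. In PA embryos it lay at 11.5, 13.4 and 12.7, then 2.78, 6.92 and 7.72, then 1.60, 27.5 and 31.3, and at 6.95 at 8 cells. The 4- to 8-cell difference over both methods was -2.09 (SE 0.89, adjusted p = 0.148), or -1.95 without the near repeats (adjusted p = 0.30), where PA 4-cell embryos 1 and 2 held 0.159 and 34.4. Its relative HSP90B1 of the endoplasmic reticulum had 27.9 ± 32.3 FPKM (SD, n = 3) in IVF 4-cell and 4.54 ± 1.86 in PA 4-cell embryos. HSP90AB1 shares bases with SLC35B2 on the opposite strand, and their levels correlated over the 42 cells (r 0.836). Whether the counting used strand is not stated, so reads of the 2 genes cannot be told apart.

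HSPB1, a small heat shock protein that binds actin and unfolded proteins (chr3:10037946-10039704, minus strand), had higher values in PA than in IVF embryos up to the 4-cell stage, where the difference was called but rested on the near repeats. It was at 0.126, 0.139 and 2.51 FPKM in IVF 1-cell, 0.352, 1.99 and 2.90 in IVF 2-cell and 0.242, 0.111 and 0.278 in IVF 4-cell embryos, and at 0 in the IVF 8-cell embryo. PA embryos had 7.51, 5.26 and 8.96, then 13.96, 19.7 and 14.1, then 6.81, 8.46 and 26.9, and 0.0378 at 8 cells. Groups did not overlap at the 1-, 2- or 4-cell stage with all libraries in.

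The IVF minus PA difference of HSPB1 was -2.29 at the 1-cell (SE 0.73, adjusted p = 0.843) and -2.74 at the 2-cell stage (SE 0.73, adjusted p = 0.414), neither of them called. At the 4-cell stage it was -3.40 (SE 0.73, adjusted p = 0.0426), and without the near repeats, where PA embryos 1 and 2 held 0.0443 and 0.0344 FPKM, it was -1.37 (adjusted p = 0.475). The call was also lost without IVF 4-cell embryo 2 (-3.34), PA 4-cell embryo 2 (-3.61) or PA 4-cell embryo 3 (-2.83), at a pseudocount of 5 (-1.72), with median ratio scaling (-4.29) and with log2 values averaged over blastomeres (-1.59). Within PA it fell to the 8-cell stage by 3.62 (SE 1.03, adjusted p = 0.0302), which was lost without the near repeats (-1.58, adjusted p = 0.748), without PA 4-cell embryo 3 (-3.05), with embryo number as a replicate block (-3.25, adjusted p = 0.0561), with median ratio scaling (-4.14) and with averaged log2 values (-1.77, adjusted p = 0.357). HSPB1 overlaps ENSSSCG00000037567 on the opposite strand, with an r of 0.987 over cells, and the same holds for the small heat shock protein HSPB6 and a partner of its own (0.998).

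HSPD1 and HSPE1 encode the large ring and the lid of the mitochondrial chaperonin and lie head to head on chromosome 15, HSPD1 at chr15:101321360-101373878 (minus strand) and HSPE1 at chr15:101373976-101376144 (plus strand). The 97 bases between them, chr15:101373879-101373975 on the plus strand, are shown because both genes start at their edges in the deposited models. The RefSeq starts lie 380 (HSPD1) and 43 bases (HSPE1) from the deposited ones. The 97 bases hold 79.4% G and C, no heat shock element of 2 or 3 units and no CCAAT box. The HSPD1 site given above lies inside the HSPD1 model of the deposited table, before the RefSeq start.
HSPD1 to HSPE1: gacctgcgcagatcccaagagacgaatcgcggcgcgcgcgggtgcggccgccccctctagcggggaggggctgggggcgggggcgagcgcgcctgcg
HSPD1 was low until the 4-cell stage and high in both 8-cell embryos. It had 1.56, 4.25 and 4.16 FPKM in IVF 1-cell, 1.38, 1.43 and 3.47 in IVF 2-cell and 0.541, 19.8 and 0.451 in IVF 4-cell embryos, and 50.6 in the IVF 8-cell embryo. PA embryos had 6.09, 1.09 and 4.79, then 7.97, 5.96 and 4.63, then 0.483, 3.08 and 0.0699, and 48.7 at 8 cells. Both 8-cell embryos lay above all 18 earlier embryos.

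Over both methods HSPD1 rose from 4 to 8 cells by 4.29 (SE 0.92, adjusted p = 0.00348, and 4.64 with adjusted p = 0.00165 without the near repeats), and this call held under all alternatives run. Within PA it rose by 4.74 (SE 1.30, adjusted p = 0.0243), or by 5.44 without the near repeats (adjusted p = 0.00834), and the IVF difference was 3.84 (adjusted p = 0.0883). The PA call was lost when log2 values were averaged over blastomeres (3.55, adjusted p = 0.0777). All 3 IVF 8-cell blastomeres held HSPD1, at 22.9, 68.8 and 60.1 FPKM, whereas the PA ones were at 0.0407, 87.8 and 58.3. HSPE1, at 12.2 to 24.8 FPKM over IVF and 7.45 to 35.2 over PA embryos up to 4 cells, had 34.8 and 45.1 in the IVF and PA 8-cell embryos, a difference over both methods of 1.19 (SE 0.63, adjusted p = 0.266). PA 4-cell embryo 1 held 0.0701 without its near repeat, and the difference was then 1.64 (adjusted p = 0.343). The pair correlated weakly over embryos (r 0.44) and cells (0.13). HSPA9, the mitochondrial HSP70, had 92.2 FPKM in the IVF 8-cell embryo and 4.12 in the PA one. Of the HSPD1 model 25.03% lies in the RefSeq gene, and the rest reaches into SF3B1 on the same strand and COQ10B on the other. Whether their reads were counted with HSPD1 was not tested.

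The CCT subunits form the cytosolic chaperonin that folds actin and tubulin, as a ring of unlike subunits, yet their mRNA levels differed widely. CCT8 was the most abundant at 66.3 FPKM over embryos, followed by CCT2 (17.3), CCT5 (13.97) and CCT4 (3.35). The lengths used for FPKM are not stated, and this order depends on them. CCT8 lay at 107, 85.8 and 32.8 FPKM in IVF 4-cell and 121, 76.7 and 171 in PA 4-cell embryos, and at 65.6 and 21.4 in the IVF and PA 8-cell embryos (within PA -2.39, SE 0.81, adjusted p = 0.0720, and -2.74 with adjusted p = 0.0600 without the near repeats). CCT5 varied between embryos of 1 group, at 1.42, 53.3 and 4.02 in IVF 4-cell and 4.11, 37.8 and 0.134 in PA 4-cell embryos. CCT3 and CCT7 were at 6.81 FPKM or less in every embryo.

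CCT4 was under 1 FPKM in 16 of the 20 embryos. It had 0.643, 0.0397 and 0.0296 FPKM in PA 4-cell embryos and 39.9 in the PA 8-cell embryo, but 0.784 in the IVF 8-cell embryo and 15.4 in IVF 4-cell embryo 3. Within PA it rose by 5.08 (SE 1.30, adjusted p = 0.0157), or 5.29 without the near repeats (adjusted p = 0.0113), and the call was lost at a pseudocount of 0.1 (7.39, adjusted p = 0.0773). CCT2 had 23.7, 27.1 and 16.6 FPKM in IVF 2-cell and 6.56, 3.66 and 14.5 in IVF 4-cell embryos, with no overlap, and 18.8, 3.69 and 24.2 against 18.5, 1.17 and 1.23 in PA. Its 2- to 4-cell difference over both methods was -1.52 (SE 0.60, adjusted p = 0.153), which became -2.38 without the near repeats (adjusted p = 0.00647), where PA 4-cell embryos 1 and 2 held 0.142 and 0.0529. TCP1, another subunit, is no member and had 21.3 FPKM in the IVF 8-cell embryo and 3.44 in the PA one. Of the CCT6 genes the members hold CCT6B, at 1.06 FPKM over embryos, and no CCT6A.

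DNAJB1, the stress-inducible J-domain partner of HSP70 (chr2:64761206-64765510, plus strand), rose between 2 and 4 cells. It was at 0.901, 3.13 and 1.90 FPKM in IVF 1-cell and 1.94, 0.0692 and 1.52 in IVF 2-cell embryos, and at 1.71, 106 and 16.1 in IVF 4-cell embryos. The IVF 8-cell embryo was back at 4.05. In PA embryos the values were 1.63, 0.989 and 1.32, then 0.643, 0.575 and 2.24, then 6.05, 4.68 and 54.8, and 5.29 at 8 cells. PA 4-cell embryos lay above all PA 2-cell embryos, and IVF 4-cell embryo 1 lay within the IVF 2-cell range.

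The DNAJB1 increase over both methods was 2.89 (SE 0.76, adjusted p = 0.0362), or 3.05 without the near repeats (adjusted p = 0.0116). It is among the less stable calls, lost at a pseudocount of 5 (1.82), with no filter on low genes, and without any 1 of 9 embryos. These were IVF 2-cell embryos 1 (log2 3.03), 2 (2.67) and 3 (2.97), IVF 4-cell embryos 2 (2.23) and 3 (2.89), PA 2-cell embryos 1 (2.81), 2 (2.80) and 3 (3.06), and PA 4-cell embryo 3 (2.37). In single cells it peaked in 1 blastomere per method, at 195 FPKM in IVF and 147 in PA 4-cell embryos, which held 69.5% and 75.5% of the group's summed FPKM. DNAJB9, an endoplasmic reticulum protein of the unfolded protein response, was at 154 FPKM in the PA and 13.4 in the IVF 8-cell embryo, after 1.91, 47.0 and 20.6 and 7.23, 0.164 and 31.3 at 4 cells (both methods 2.25, SE 1.12, adjusted p = 0.229, and 2.17 with adjusted p = 0.290 without the near repeats). The PA 8-cell value of DNAJB9 rested on 1 blastomere with 462 FPKM, and the sisters of that embryo spanned 8.86 on the log2 scale. DNAJB6, which prevents aggregation, was at 10.2 FPKM or less in every embryo.

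The DNAJC genes, whose products share the J-domain and otherwise differ, were the largest class, with 22 of the 52 tested members, and held all 3 interactions with method. DNAJC21 (chr16:20523945-20551730, plus strand), a factor of ribosome maturation, took opposite courses. IVF embryos held 40.4, 130 and 117 FPKM at 1 cell, 94.7, 75.8 and 100.7 at 2 cells, 71.8, 89.8 and 57.0 at 4 cells and 0.204 at 8 cells. PA embryos held 61.9, 61.6 and 85.5, then 8.11, 13.9 and 202, then 6.07, 3.82 and 2.41, and 135 at 8 cells. The 4-cell groups did not overlap, and the 8-cell embryos reversed their order.

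From 4 to 8 cells DNAJC21 fell in IVF by 5.92 (SE 1.17, adjusted p = 0.00311) and rose in PA by 4.80 (SE 1.17, adjusted p = 0.0118), or by 5.82 without the near repeats (adjusted p = 0.00519). The interaction was -10.72 (SE 1.66, adjusted p = 0.00201), or -11.73 without the near repeats (adjusted p = 0.00133). The PA increase rested on 1 blastomere, with 0.289, 404 and 1.55 FPKM in the 3 PA 8-cell cells, and averaging log2 values over blastomeres gave 1.68 (adjusted p = 0.671) and an interaction of -6.12 (adjusted p = 0.1004). At 4 cells DNAJC21 was higher in IVF by 3.90 (SE 0.83, adjusted p = 0.0426), or by 4.91 without the near repeats (adjusted p = 0.00470). That call was lost without IVF 4-cell embryo 2 (3.73) or 3 (4.06), or PA 4-cell embryo 2 (3.89) or 3 (3.64), at a pseudocount of 5 (3.09), with no filter, with median ratio scaling (2.71) and with averaged log2 values (2.93).

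DNAJC2, a ribosome-bound partner of HSPA14, had 4.02, 14.3 and 6.70 FPKM in IVF 4-cell embryos and 0.120 at the IVF 8-cell stage, against 21.5, 0.930 and 0.193 in PA 4-cell embryos and 211 in the PA 8-cell embryo, where it was the most abundant member. Within PA it rose by 5.83 (SE 1.38, adjusted p = 0.00956), or by 7.45 without the near repeats (adjusted p = 0.000317), with 292, 341 and 0.0314 FPKM in the 3 blastomeres. Leaving out the near repeats gave PA 4-cell embryos 1 and 2 values of 0.214 and 0.230. The interaction was -8.74 (SE 1.95, adjusted p = 0.0202), or -10.36 without the near repeats (adjusted p = 0.00138), and was lost with log2 values averaged over blastomeres (-5.78, adjusted p = 0.0951).

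DNAJC19, of the mitochondrial import motor, was at 1.25 FPKM or less in all other embryos and at 11.13 in the PA 8-cell embryo (0.0611 in IVF). It rose in PA by 3.60 (SE 0.55, adjusted p = 0.000316) and over both methods by 1.65 (SE 0.39, adjusted p = 0.00755), with an interaction of -3.90 (SE 0.78, adjusted p = 0.0117). Without the near repeats these were 3.59, 1.64 and -3.90, all called. The value over both methods is a mean that PA carried, as the IVF 8-cell embryo held 0.0611 FPKM. The increase over both methods fell under a log2 of 1 at a pseudocount of 5 (0.80). At a pseudocount of 0.1 it was no longer called (adjusted p = 0.102), and neither was the interaction (-7.33, adjusted p = 0.133). DNAJC14, a membrane protein of the endoplasmic reticulum, had 61.5 FPKM in the PA 8-cell embryo and 2.31 in the IVF 8-cell embryo, after 0.0980, 0.150 and 0.0492 in PA and 0.0822, 0.0204 and 3.69 in IVF 4-cell embryos. It rose within PA by 5.83 (SE 1.13, adjusted p = 0.00229, and 5.84 without the near repeats) and over both methods by 3.38 (SE 0.80, adjusted p = 0.00714, and 3.39 with adjusted p = 0.00831 without the near repeats). Its PA value came from 1 cell with 184 FPKM and 99.9% of the sum, and with log2 values averaged over blastomeres the differences were 2.45 (adjusted p = 0.147) and 1.52 (adjusted p = 0.181).

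DNAJC7, which links HSP70 with HSP90, moved the other way in PA, which carried most of its mean change over both methods. Among IVF 4-cell cells DNAJC7 had 349 FPKM in 1 blastomere, 77.6% of the group's sum. It was at 9.27, 8.78 and 101.04 FPKM in IVF 4-cell embryos and 12.8 at the IVF 8-cell stage, and at 122, 28.4 and 46.0 in PA 4-cell embryos and 1.15 at the PA 8-cell stage. It fell within PA by 4.69 (SE 1.12, adjusted p = 0.0107, and -4.90 with adjusted p = 0.0138 without the near repeats) and over both methods by 2.67 (SE 0.80, adjusted p = 0.0311, and -2.78 with adjusted p = 0.0464). The PA call was lost with median ratio scaling (-3.97, adjusted p = 0.141) and with log2 values averaged over blastomeres (-3.70, adjusted p = 0.0913). The call over both methods was lost without PA 4-cell embryo 1 (-2.38), with embryo number as a replicate block (-2.45, adjusted p = 0.0831), at a pseudocount of 5 (-1.96), with median ratio scaling (-2.03) and with averaged log2 values (-2.51). DNAJC24, a factor of diphthamide synthesis, had 44.2 FPKM in the PA 8-cell embryo and 3.59 in the IVF one, after at most 3.12 at 4 cells. It rose over both methods by 2.99 (SE 0.98, adjusted p = 0.0498), or by 3.40 without the near repeats (adjusted p = 0.0331). This call at the edge of the threshold was lost without IVF 4-cell embryo 1 (2.94), 2 (2.93) or 3 (3.11), or PA 4-cell embryo 1 (2.77) or 2 (3.14). It was also lost at a pseudocount of 0.1, with no filter, with nuclear genes rescaled to 1 total (2.59, adjusted p = 0.111) and with log2 values averaged over blastomeres (1.83, adjusted p = 0.221).

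**Figure D4:**
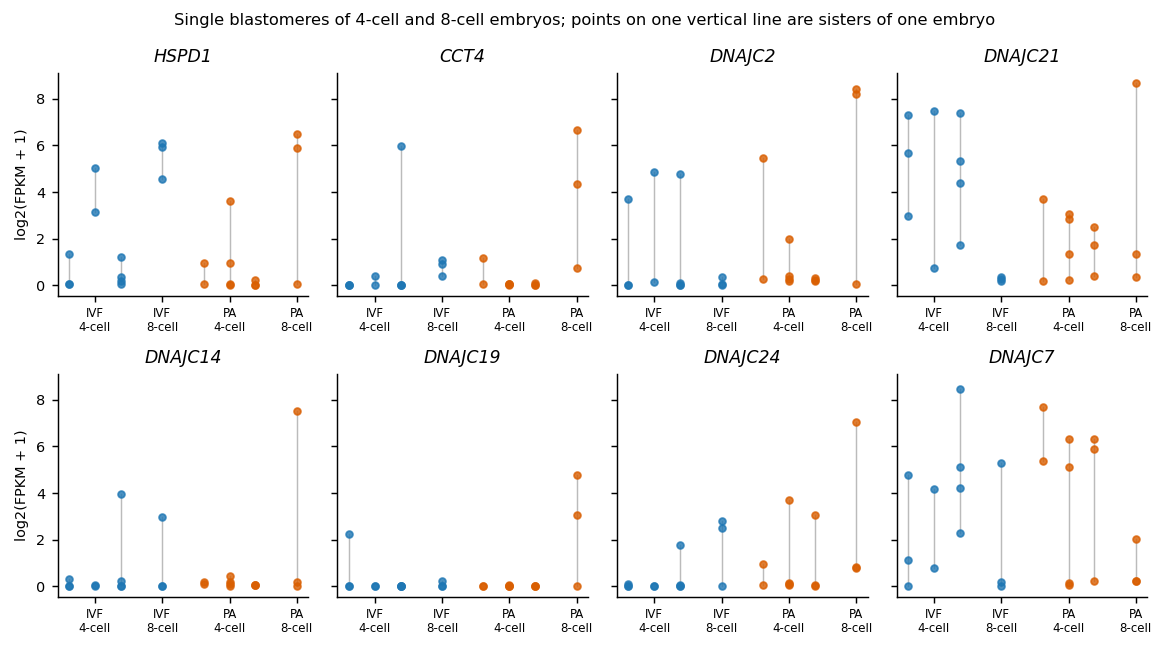
Levels of 8 called members, as log2(FPKM + 1), in each blastomere (point) of the 4- and 8-cell embryos of IVF (blue) and PA (orange), with vertical lines joining blastomeres of 1 embryo. In FPKM, HSPD1 is at 22.9 to 68.8 in all 3 IVF 8-cell cells, whereas DNAJC14 reaches 184 and DNAJC21 reaches 404 in 1 PA 8-cell cell each.

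Sister blastomeres of 1 embryo were compared by the mean absolute difference in log2(FPKM + 1) over their pairs, as a description. For the median member it was 0.91 at the IVF 2-cell, 1.26 at the IVF 4-cell and 0.97 at the IVF 8-cell stage, and 1.17, 1.60 and 2.21 in PA. The PA 4-cell value without the near repeats was 1.08. For the median of all 8116 tested genes it was 0.85, 1.27 and 0.23 in IVF and 0.95, 1.05 and 0.078 in PA, or 0.52 at the PA 4-cell stage without the near repeats. Genes near 0 in every sister cannot differ. In the median 8-cell blastomere 23.1% (IVF) and 20.9% (PA) of all tested genes, but 30.8% of the members, reached 1 FPKM. The 8-cell values of members and of all genes are therefore not on equal terms. Of the 3 PA 8-cell cells 1 carried 83.0% of the summed FPKM of CCT4 and 98.9% of that of DNAJC24.

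The 8-cell embryos, with 1 per method, allow no test between IVF and PA. As values, 9 of the 52 members were higher in IVF by a log2 of at least 1 and 19 in PA, where all tested genes counted 1573 and 1564. The largest differences toward PA were those of DNAJC2 (log2 IVF minus PA -7.56), DNAJC21 (-6.82), DNAJA2 (-4.62), CCT5 (-4.59) and CCT4 (-4.52). Toward IVF they were those of DNAJC12 (3.99), CCT2 (3.71), HSPH1 (2.90) and DNAJC7 (2.68). Neighbouring genes also share bases with members on the opposite strand, in 16 of the 52 tested, and in 5 of these such a partner correlated above 0.7 over cells.

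Lists of the genes that work with these chaperones held between 0 and 4 calls per step over both methods. Beside them stand the shares of all genes given above, 1.79% higher and 2.35% lower from 2 to 4 cells and 7.27% and 5.34% from 4 to 8 cells. Each call named in these lists held without the near repeats unless stated. The list for the chaperonin held its subunit TCP1, prefoldin and phosducin-like proteins, TBCA to TBCE, MKKS, BBS10 and BBS12. Of its 15 tested genes, 0 were called from 2 to 4 cells and 3 rose from 4 to 8 cells. These were VBP1 (4.91, adjusted p = 7.41e-05), PDCL3 (3.64, adjusted p = 0.00407) and PFDN5 (1.75, adjusted p = 0.0104). VBP1, a prefoldin subunit, had 31.4 and 50.3 FPKM in the IVF and PA 8-cell embryos and at most 5.16 in every other embryo. The list's median was 0.72 at that step, where that of all genes was -0.29. PFDN1 was also called lower without the near repeats at the earlier step (-1.91, adjusted p = 0.0422) and MKKS higher at the later one (2.55, adjusted p = 0.0173).

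Of 15 tested cochaperones of HSP90, PTGES3 rose from 2 to 4 cells (3.40, adjusted p = 0.0262) and CHORDC1 fell (-1.77, adjusted p = 0.0160). AHSA1, an activator of the HSP90 ATPase, fell from 4 to 8 cells (-3.83, adjusted p = 0.000259), a call lost without the near repeats (-3.05, adjusted p = 0.0549). Without these libraries FKBP5 (-2.28, adjusted p = 0.0204) and RPAP3 (-3.37, adjusted p = 0.00390) were also called lower from 2 to 4 cells. Of 9 tested cochaperones of HSP70, 0 were called at the earlier step, and at the later HYOU1, an HSP110 of the endoplasmic reticulum, rose (1.43, adjusted p = 0.00688) and BAG4 fell (-2.63, adjusted p = 0.00473). That HYOU1 value is a mean carried by IVF, as its values under Other observations show. Of 15 tested folding enzymes and lectins of the endoplasmic reticulum, MANF rose from 2 to 4 cells (2.08, adjusted p = 0.0245) and fell from 4 to 8 cells (-2.96, adjusted p = 0.00790), where CALR, the chaperone calreticulin, rose (3.02, adjusted p = 0.0174) and the oxidoreductases ERO1A (-2.76, adjusted p = 0.0201) and ERO1B (-4.96, adjusted p = 0.000211) fell. The ERO1A call was lost without the near repeats (-2.14, adjusted p = 0.0574), where ERO1A was instead called lower from 2 to 4 cells (-1.64, adjusted p = 0.0376) and CANX higher from 4 to 8 cells (3.29, adjusted p = 0.0277).

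Of 7 tested genes of heat shock factors and stress signalling, ATF4, a transcription factor of the integrated stress response, rose from 2 to 4 cells (2.62, adjusted p = 0.0361), and 0 were called from 4 to 8 cells. Its FPKM was 0.886, 29.6 and 13.8 in IVF 4-cell and 46.1, 45.8 and 24.3 in PA 4-cell embryos, against at most 7.76 at the 2-cell stage. Of 4 tested genes of mitochondrial proteostasis 0 were called at either step over both methods, or 1 without the near repeats, YME1L1 higher from 4 to 8 cells (2.66, adjusted p = 0.0298). Of 2 further J-domain and small heat shock relatives SEC63 rose from 4 to 8 cells (3.42, adjusted p = 0.0193).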

How the data were processed

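The authors lysed single blastomeres, amplified their cDNA by Ansuper-seq, a method that does not depend on a polyA tail, and read it on a HiSeq X-Ten machine. Per the labels another extraction was used, and that of the paper was taken as the right one. The authors mapped reads with HISAT2 to Sscrofa11.1, counted them with HTSeq and deposited FPKM, fragments per kilobase of gene scaled to mapped fragments, for 15351 genes in 42 cells. Versions, annotation release, gene lengths and strandedness are not given in the sources used here.

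Whole reads were recovered from the FPKM steps for 10505 of 10505 genes present in at least 5 cells (within 0.02 of a whole number), a tolerance that high values meet easily, giving a median of 12285585 reads per cell. They served as depth only, and no count test was run on the deposited FPKM. Values were averaged over the blastomeres of an embryo and analysed as log2(FPKM + 1). The 8116 genes that reached 1 FPKM in 3 or more cells were fitted with limma 3.58.1 in R 4.3.3, all 8 groups together, with a mean-variance trend and Benjamini-Hochberg adjustment, two-sided. Group means were contrasted with no covariate. Nothing in the labels says whether embryos came from separate ovaries, so p-values measure the spread between these embryos.

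The symbol rule uses no measured value, but the family was proposed and the gene lists were chosen with earlier results of these data known, so none of them is independent support. Any member could be named. Values per embryo were given for core members, for called members and for the most abundant ones, and other genes were named where called. Alternatives were the pseudocount, the filter, rescaling of nuclear genes, median ratio scaling, averaging of log2 values, leaving out the near repeats, a replicate block and leaving out each embryo. On simulated data for 8116 genes the step from 4 to 8 cells over both methods gave calls for 58 of 100 genes changed by a log2 of 4 and 6 of 100 changed by 2. Python 3.11.15, pandas 2.3.3 and numpy 2.4.6 did the rest. Promoter windows and gene models came from RefSeq. MII oocytes and protein sequences were not analysed here.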

Additional observations from a re-analysis of the deposited data

Results flagged for a closer look

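The step from the 4- to the 8-cell stage differed between IVF and PA for 3 members by the test of the interaction itself, on the log2(FPKM + 1) scale with limma and Benjamini-Hochberg adjustment. DNAJC21 gave -10.72 (adjusted p = 0.00201), DNAJC2 gave -8.74 (adjusted p = 0.0202) and DNAJC19 gave -3.90 (adjusted p = 0.0117). The calls of DNAJC21 and DNAJC2 were lost with log2 values averaged over blastomeres and that of DNAJC19 at a pseudocount of 0.1. Each rests on 1 embryo per method at the 8-cell stage.

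Dixon's test was run on the summed FPKM of the members in the 4 groups of 4 to 10 cells, at 2 and 4 cells. No cell stood apart from the rest of its group. The test's rate of about 1 in 20 groups by chance assumes independent cells. These cells include sisters of 1 embryo, so that rate does not hold and no conclusion is drawn from the result. Groups of 3 cells were too small for the test, and cells standing apart in them were not tested.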

How the results depend on the processing

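Of 135 recomputed counts of called members (15 comparisons under 9 alternatives), 115 stayed within 1.5 times the main count, and the others are given here. Averaging log2 values over blastomeres gave 4 instead of 0 calls for IVF from 2 to 4 cells, 2 instead of 0 for PA, 9 instead of 3 over both methods, 3 instead of 8 for PA from 4 to 8 cells, 0 instead of 2 for IVF against PA at 4 cells and 1 instead of 3 for the interaction of method with 4 to 8 cells. Median ratio scaling, which rests on 1064 genes, gave 5 for PA from 2 to 4 cells, 6 for IVF, 15 for PA and 17 over both methods from 4 to 8 cells (16 higher and 1 lower, against 4 and 2 in the main fit), and 7 for that interaction. A pseudocount of 5 gave 1 for IVF from 2 to 4 cells, 0 for IVF against PA at 4 cells and 5 for the interaction. With no filter the counts were 1 for IVF from 2 to 4 cells, 1 over both methods at that step and 1 for IVF against PA at 4 cells, and a filter of 5 FPKM gave 1 for IVF from 2 to 4 cells. Without the near repeats there were 5 for PA and 8 over both methods from 2 to 4 cells.

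Without each embryo in turn the counts ranged from 0 to 2 for IVF and 0 to 2 for PA from 2 to 4 cells, from 1 to 5 over both methods at that step, from 2 to 5 for IVF, 8 to 10 for PA and 5 to 10 over both methods from 4 to 8 cells, from 0 to 3 for IVF against PA at 4 cells and from 3 to 4 for the interaction. In the comparisons of 1 with 2 cells, of IVF with PA at 1 and 2 cells, and in the earlier interactions they stayed at 0. The 8-cell embryos, each alone in its group, were not left out.

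Among 768 values of single members under the alternatives other than leaving out an embryo, 639 kept direction and side of the threshold, 40 lost a call, 87 gained one and 2 reversed, both under median ratio scaling. These were DNAJA1 over both methods from 2 to 4 cells, from -1.53 to 0.47, and DNAJA4 in PA from 4 to 8 cells, from -0.0029 to 1.503. The causes were not tested. Embryos with the same number mostly did not move together (r from -0.041 to 0.355 over 45 pairs, all above 0.1 in 1 of 15 pairs of groups). That 1 was PA 2-cell with PA 4-cell, at 0.355, 0.282 and 0.10015 for embryos 1, 2 and 3. Embryos 1 and 2 of it hold the near repeats, whose part in these r was not tested. The number was not taken as a pairing. As a replicate block it gave 8 calls for PA and 7 over both methods from 4 to 8 cells, and 0 for PA from 2 to 4 cells.

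With 3 embryos a group the standard error of a log2 difference had a median of 0.816, and with 1 embryo at 8 cells no spread of that stage was measured.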

Other observations

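Beyond the steps over both methods, partners of the chaperones differed within 1 method. HYOU1, an HSP110 of the endoplasmic reticulum, was at 6.24 FPKM in the IVF 8-cell embryo and at 0.0423 in the PA one, after at most 0.0725 at 4 cells, and rose within IVF by 2.80 (limma, adjusted p = 0.000779) with an interaction of 2.75 (adjusted p = 0.0320). NUDCD2, an HSP90 cochaperone, had 35.7 FPKM in the IVF 8-cell embryo and 0.445 in the PA one and rose within IVF by 4.44 (adjusted p = 0.00984), with an interaction of 5.52 (adjusted p = 0.0469) that was lost without the near repeats (5.34, adjusted p = 0.0641). DDIT3, a transcription factor of the stress response of the endoplasmic reticulum, showed the opposite order, with 18.9 FPKM in the PA and 0.0218 in the IVF 8-cell embryo. It rose within PA by 4.09 (adjusted p = 0.00378), with an interaction of -4.70 (adjusted p = 0.0422). Without the near repeats the calls of HYOU1 and DDIT3 held (interactions 2.74 and -4.71).

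Among genes of mitochondrial proteostasis, within PA from 4 to 8 cells YME1L1, a protease of the inner membrane, rose by 3.64 (adjusted p = 0.0291), or by 4.75 without the near repeats (adjusted p = 0.00739). CLPX fell by 3.97 (adjusted p = 0.0372), a call lost without them (-2.95, adjusted p = 0.30).

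The models in the deposited table are wider than those of RefSeq for some members. Of 66 members compared, 10 had under 50% of their span in the RefSeq gene. DNAJA2 had 14.5%, and its model shares 44434 bases with GPT2 on the opposite strand, and HSPA4L had 43.7%, reaching MFSD8 on the opposite and PLK4 on the same strand. Whether reads of those genes entered the values was not tested.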
